A study of Mus musculus with 12 samples.

Results

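Peak-dense windows of the mouse embryonic stem cell genome were stretches of 100 kb that held 8 or more ATAC-seq peaks on average. Chromosomes 1 to 19 were cut into non-overlapping 100 kb windows, peak summits were counted in each of the 12 libraries, and windows with a mean count of at least 8 were kept. There were 539 such windows of 24616, or 2.19%. The windows were chosen by their peak counts, so the height of those counts is given as a description and carries no test.

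ATAC-seq uses the Tn5 transposase to put sequencing adapters into open chromatin, and the study asked how open a human HPRT1 insert and a reversed version of it are in mouse cells, set beside the rest of the genome. The cells were BL6xCAST embryonic stem cells with an insert on chromosome X, either synHPRT1R, the reversed sequence, or synHPRT1, the human HPRT1 sequence. Each genotype had 6 libraries, 3 from each of 2 clones, and each clone is a separate line, so a difference between genotypes cannot be told apart from a difference between 2 pairs of lines. Both genotypes were cultured on gelatin. The medium was largely 2i with LIF, the GSK3 inhibitor CHIR99021 and the MEK inhibitor PD0325901, plus a smaller part of serum medium. The labels do not say whether replicates were separate cultures. The p-values therefore rest on library-to-library spread, and that spread may be technical only.

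Open sites are not spread evenly along chromosomes. They gather at gene starts in gene-rich stretches, and also as clusters of enhancers around genes that set cell identity, such as the pluripotency factors in embryonic stem cells. Tandem gene families, among them histones, protocadherins and zinc finger genes, pack many near-identical starts into short stretches, where short reads can match more than 1 copy.

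Each list held between 37111 and 61717 peaks on chromosomes 1 to 19. The peak-dense windows held 10.8 ± 0.315% of them in synHPRT1R and 10.9 ± 0.503% in synHPRT1 (SD, n = 6 each). A peak-dense window had 9.31 ± 0.980 peaks in synHPRT1R libraries and 10.0 ± 1.5 in synHPRT1 libraries, while any other window had 1.72 ± 0.220 and 1.85 ± 0.372. Of the 10 embryonic stem cell markers 5 lay in peak-dense windows, and 0 of the 10 fibroblast and feeder markers did. Among all protein-coding genes 1936 of 20665 did (9.37%). No stem cell marker window was at 0 in any library, and 1 fibroblast marker window, that of Fap, was at 0 in 5 libraries. The summed count over the stem cell marker windows was 67 to 91 in synHPRT1R and 64 to 111 in synHPRT1, against 29 to 35 and 26 to 42 for the fibroblast markers. The endoderm list had 1 of 8 markers in a peak-dense window and the trophoblast list 3 of 8. The fibroblast and endoderm numbers are near the share of all genes and do not show that such cells were absent. One library, synHPRT1 clone 2 replicate 3, had the shortest list, and the counts of agreement and of genotype calls are given without it as well.

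The sequences that follow are the starts of genes in peak-dense windows, from 250 bases before to 50 after the RefSeq start (GRCm38.p6), each read on the strand of its gene. They are shown because H1f3, Gm13271, Slc43a1 and Zfp184 had a start covered by a peak in every library, in 4 of the 10 densest windows, and Nanog and Esrrb are the pluripotency factors whose windows are described in detail. Capitals mark matches to 5 motifs searched on both strands, GGGCGG (SP and KLF factors), CCAAT (NFY), CCGGAA (ETS), CGCATGCG (NRF1) and AAGATGGC (YY1). A match in capitals is a match of letters and not a bound site.
H1f3, a linker histone, chr13:23554782-23555081, plus strand: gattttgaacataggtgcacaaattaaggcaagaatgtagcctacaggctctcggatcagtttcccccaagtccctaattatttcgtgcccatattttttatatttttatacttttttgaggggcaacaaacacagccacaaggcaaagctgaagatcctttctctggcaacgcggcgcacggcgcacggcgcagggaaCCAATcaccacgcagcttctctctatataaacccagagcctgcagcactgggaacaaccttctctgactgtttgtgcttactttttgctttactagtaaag
Gm13271, a predicted gene beside Ifnz, chr4:88754618-88754917, plus strand: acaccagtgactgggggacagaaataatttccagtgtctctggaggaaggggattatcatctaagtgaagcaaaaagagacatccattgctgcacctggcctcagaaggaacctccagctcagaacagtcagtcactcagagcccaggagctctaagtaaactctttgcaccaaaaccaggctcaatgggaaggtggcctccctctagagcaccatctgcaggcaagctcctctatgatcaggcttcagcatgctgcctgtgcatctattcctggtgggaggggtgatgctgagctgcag
Slc43a1, an amino acid transporter, chr2:84840073-84840372, plus strand: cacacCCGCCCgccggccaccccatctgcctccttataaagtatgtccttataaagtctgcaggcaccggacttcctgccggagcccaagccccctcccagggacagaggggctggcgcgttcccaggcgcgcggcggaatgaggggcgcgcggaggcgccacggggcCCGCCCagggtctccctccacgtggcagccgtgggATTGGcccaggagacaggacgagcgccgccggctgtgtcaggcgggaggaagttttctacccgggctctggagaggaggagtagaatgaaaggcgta
Zfp184, a zinc finger gene, chr13:21944844-21945143, plus strand: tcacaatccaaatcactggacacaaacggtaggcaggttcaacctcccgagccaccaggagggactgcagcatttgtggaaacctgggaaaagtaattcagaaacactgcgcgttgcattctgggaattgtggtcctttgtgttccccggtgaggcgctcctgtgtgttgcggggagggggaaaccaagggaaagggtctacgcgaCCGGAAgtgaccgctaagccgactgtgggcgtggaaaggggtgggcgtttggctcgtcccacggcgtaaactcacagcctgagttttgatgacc
Nanog, a pluripotency factor, chr6:122707239-122707538, plus strand: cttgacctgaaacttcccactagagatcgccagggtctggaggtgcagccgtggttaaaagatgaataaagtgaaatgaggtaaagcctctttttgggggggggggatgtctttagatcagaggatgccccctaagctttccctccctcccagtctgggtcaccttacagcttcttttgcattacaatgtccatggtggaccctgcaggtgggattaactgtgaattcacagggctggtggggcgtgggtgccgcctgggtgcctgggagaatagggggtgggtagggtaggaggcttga
Esrrb, an orphan nuclear receptor of the pluripotency network, chr12:86421394-86421693, plus strand: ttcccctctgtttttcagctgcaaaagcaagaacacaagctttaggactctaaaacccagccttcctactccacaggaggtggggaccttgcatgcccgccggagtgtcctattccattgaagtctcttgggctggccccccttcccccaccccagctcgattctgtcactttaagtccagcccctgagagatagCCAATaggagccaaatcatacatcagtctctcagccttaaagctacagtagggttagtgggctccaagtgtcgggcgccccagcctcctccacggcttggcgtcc

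A peak overlapped these bases in all 12 libraries at H1f3, Gm13271, Slc43a1, Zfp184 and Nanog, and in 10 libraries at Esrrb. The H1f3 and Esrrb starts each held 1 CCAAT. The Slc43a1 start held 1 CCAAT and 2 GGGCGG, all on the opposite strand, so that they read ATTGG and CCGCCC as printed. The Zfp184 start held 1 CCGGAA, and no motif of the 5 was found in the 300 bases of Nanog or Gm13271. Across all protein-coding starts in peak-dense windows, 1745 of 1389 genes, the median GC content was 59.3% and the median number of CpG was 17, against 57.0% and 14 over 20085 starts of 16457 genes. GGGCGG was in 59.4% of the starts in peak-dense windows and in 47.0% of all starts. CCGGAA was in 22.1% and 19.1%, CCAAT in 37.7% and 38.1%, CGCATGCG in 2.52% and 2.54%, and AAGATGGC in 4.01% and 3.06%. A peak overlapped the start in all 12 libraries at 51.9% of starts in peak-dense windows and 42.6% of all starts, and no library listed one at 19.1% and 36.3%. Starts on chromosome 18 were not used here.

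The window with the highest mean, chr11:3100001-3200000, holds Sfi1, which encodes a centrin-binding protein of the centriole. It had 28, 30.5 and 34 peaks in the lowest, median and highest synHPRT1R library, and 29, 34 and 36 in synHPRT1, with a mean of 31.8 ± 2.96 (SD, n = 12). The genotypes overlapped over most of their range. The second, chr9:3000001-3100000, overlaps no annotated protein-coding gene and had 22, 23 and 25 peaks in synHPRT1R and 21, 22 and 24 in synHPRT1. Overlapping peaks of the libraries were joined into regions, and 21 of its 25 regions were listed in all 12 libraries, between 0.535 and 37.4 kb from the start of the window.

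The third, chr13:23500001-23600000, holds 15 histone genes, which supply the nucleosome and linker proteins made during DNA replication. It had 18, 18.5 and 20 peaks in synHPRT1R and 17, 19 and 20 in synHPRT1, a coefficient of variation of 0.0515 over the 12 libraries. In it 62.7% of summits lay within 1 kb of an annotated gene start. The fourth, chr4:88700001-88800000, holds Klhl9, the interferon gene Ifnz and 11 predicted genes. Its counts were 15, 15.5 and 18 in synHPRT1R and 15, 16 and 17 in synHPRT1, and 81.3% of its summits lay at a start. A peak overlapped the start of Gm13271 in all 12 libraries and that of Ifnz itself in 0.

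**Figure D1:**
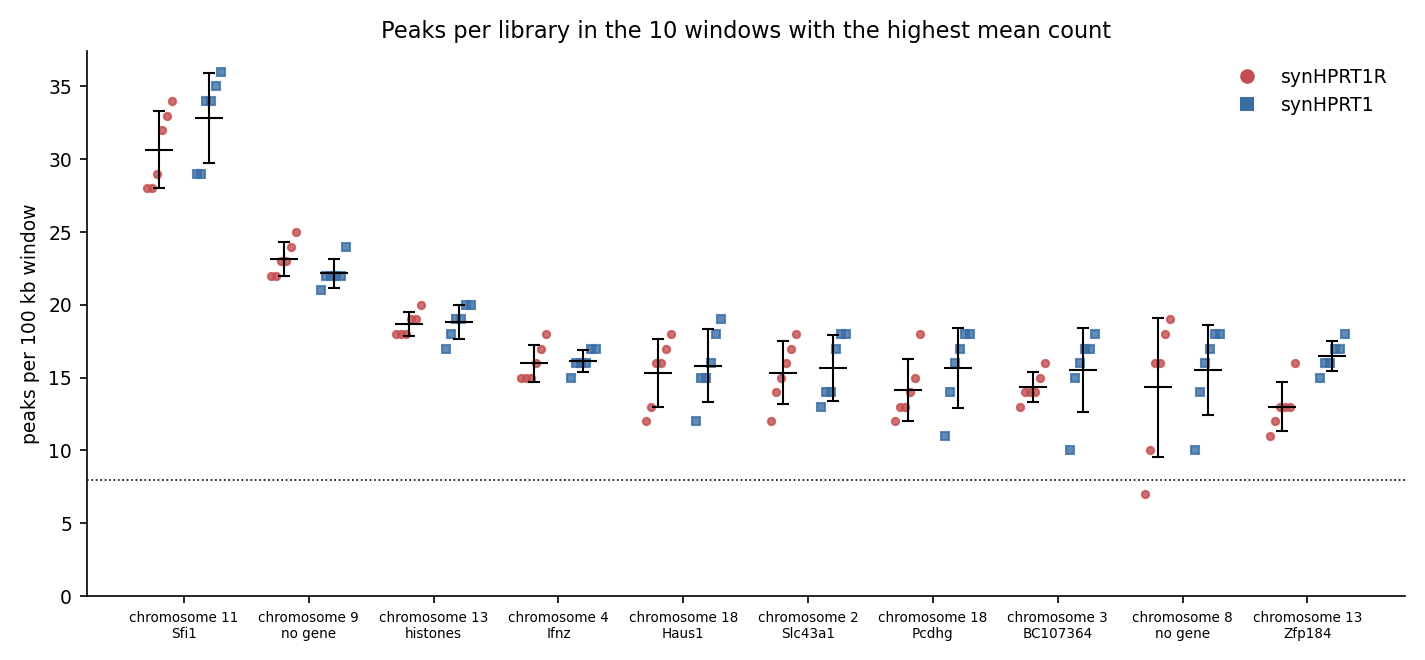
Peaks per 100 kb window (vertical axis) in the 10 windows with the highest mean count, labelled by chromosome and a gene they hold. Points are libraries, sorted by value within a genotype, synHPRT1R to the left of synHPRT1. Bars give the mean and SD (n = 6 each) and the dotted line the threshold of 8. The genotypes overlap in all 10 windows, and the Sfi1 window stands above the rest at 28 to 36 peaks.

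The other 6 of the top 10 had means of 14.8 to 15.6. They were chr18:77700001-77800000 with Haus1, Atp5a1, Pstpip2 and 8030462N17Rik, chr2:84800001-84900000 with Ube2l6, Smtnl1, Timm10, Slc43a1 and Rtn4rl2, and chr3:96400001-96500000 with BC107364. Also among them were chr18:37700001-37800000 in the gamma-protocadherin cluster (Pcdhg), cell-surface adhesion proteins of neurons, chr8:20000001-20100000 with no protein-coding gene, and chr13:21900001-22000000 with Zfp184 and Pom121l2. The chr8 window varied the most of the 10, with 7, 16 and 19 peaks in synHPRT1R and 10, 16.5 and 18 in synHPRT1.

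Peak number and peak fold did not go together in the windows of highest count. The authors' deposited fold, the enrichment of a summit over its local background, was ranked within each list, and a percentile of 50 marks a peak of middling fold. The median peak of the Sfi1 window stood at percentile 0.842, that of the chr9 window at 9.68, and that of chr8:20000001-20100000 at 3.68. The histone window on chromosome 13 stood at 35.6 and the Ifnz window at 63.7. In all, 8 peak-dense windows had a median percentile under 10, of which 6 lay in chr8:19700001-20700000. The share of summits within 1 kb of a gene start, averaged over windows, was 2.83% in these 8. In the other peak-dense windows outside chromosome 18 it was 27.2%. With peaks of −log10 q of at least 5 alone, the Sfi1 window kept 24.9 peaks and the highest rank and the chr9 window 22.0 and the next rank, whereas chr8:20000001-20100000 kept 5.33, or 35.8% of its peaks, and ranked 631. Whether reads with several matches or blacklisted stretches were removed was not stated in the labels or notes, and the part of such reads in these counts was not tested.

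**Figure D2:**
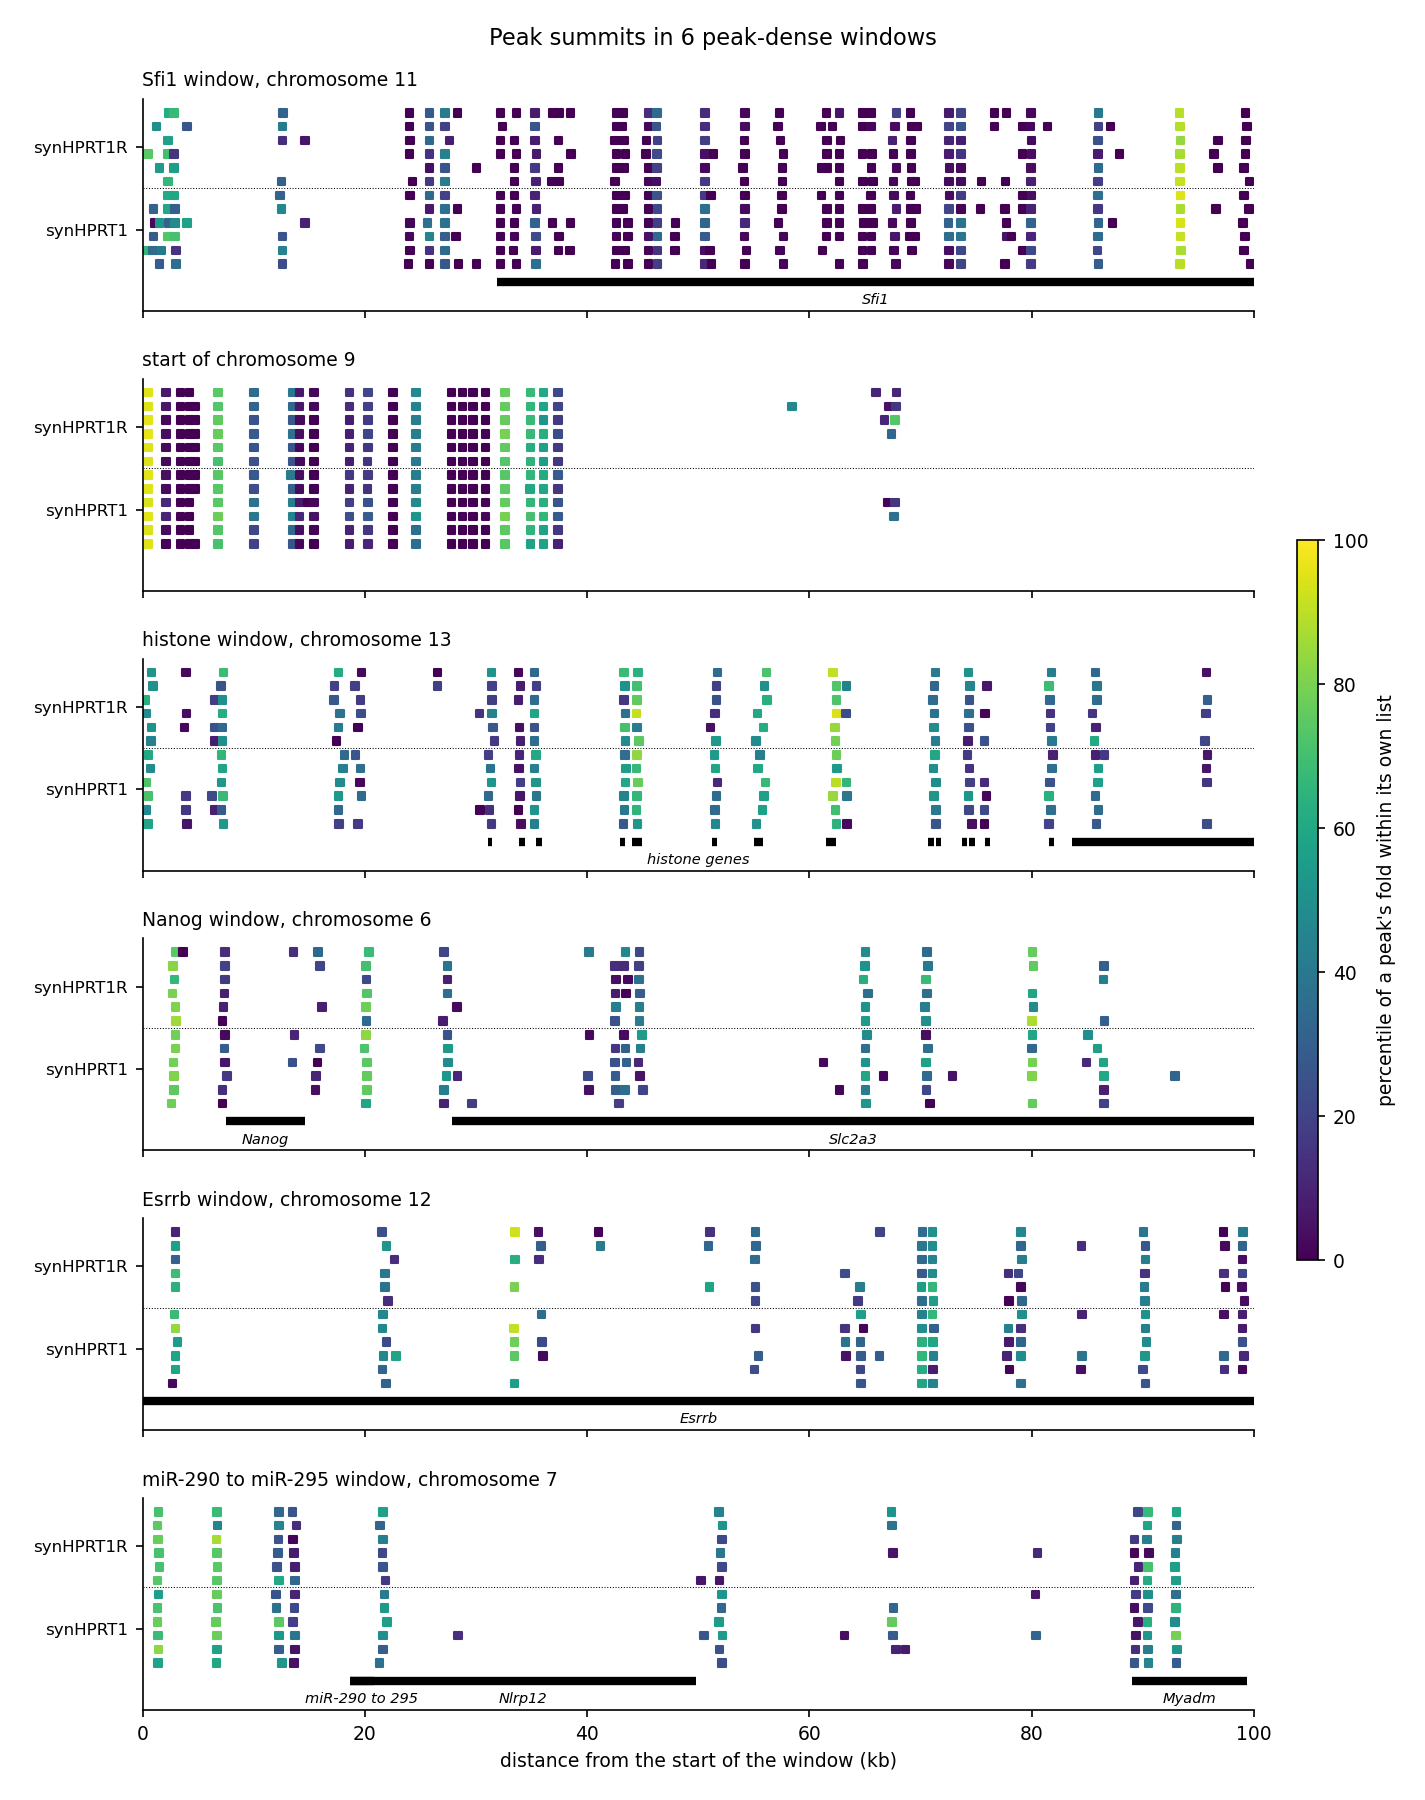
Peak summits in 6 peak-dense windows. The horizontal axis is distance from the start of the window in kb, each row of squares is 1 library (synHPRT1R above the dotted line, synHPRT1 below), colour is the percentile of a peak's fold within its own list, and black bars are annotated genes. The Sfi1 and chromosome 9 windows hold many summits of low percentile, and 7 of 21 regions in the Nanog window and 8 of 15 in the miR-290 to miR-295 window are in all 12 libraries.

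Peaks of peak-dense windows as a whole had a little lower fold than others. By q-value they did not fall behind, as 70.3% of them had a −log10 q of at least 5, against 68.1% elsewhere. Their median fold percentile was 42.8 ± 1.67 in synHPRT1R and 43.5 ± 2.75 in synHPRT1, against 51.3 ± 1.19 and 51 ± 1.06 for peaks elsewhere (SD, n = 6 each), and it was lower than elsewhere in 12 of 12 libraries. Of the 539 windows, 463 had a median percentile of 20 to 60, 62 were above 60 and 19 above 70. The highest, 85.3, was chr14:50900001-51000000 with Apex1, Osgep, Pnp and Pnp2. Neighbouring summits lay 7219 ± 696 bp apart in synHPRT1R and 6825 ± 744 bp in synHPRT1 (median spacing), against 13408 ± 1109 and 12668 ± 1421 bp in other windows. The closer spacing follows from choosing windows by their peak count. Peak width was close, 463 ± 14.6 and 474 ± 30.0 bp in peak-dense windows and 463 ± 8.55 and 458 ± 18.3 bp elsewhere.

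Peak-dense windows were gene-rich. Their median was 3 protein-coding genes, with a highest of 25, against a median of 1 over all windows. Of the 539 peak-dense windows, 175 held 5 or more genes (32.5%), against 4.17% of all windows, and 21 held no gene (3.90%), against 36.4%. The 1882 windows just below, with a mean of 5 to under 8, were gene-rich too. They had a median of 2 genes, with 17.0% at 5 or more and 5.37% at none. Read the other way, 17.0% of windows with 5 or more genes were peak-dense, 3.58% of those with 2 to 4, 1.47% of those with 1, and 0.235% of those with none. The share of summits within 1 kb of a start was 46.4% in peak-dense windows with 5 or more genes, 21.8% with 2 to 4, 11.2% with 1 and 3.33% with none. Leaving out chromosome 18, whose starts were not used, it was 27.0 ± 1.55% in synHPRT1R and 26.1 ± 2.40% in synHPRT1 over peak-dense windows. Elsewhere it was 25.5 ± 2.05% and 24.4 ± 3.31%. The share was higher in peak-dense windows than elsewhere in 12 of 12 libraries, by 0.394 to 2.83 percentage points. Most peaks in peak-dense windows lay farther from an annotated start.

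**Figure D3:**
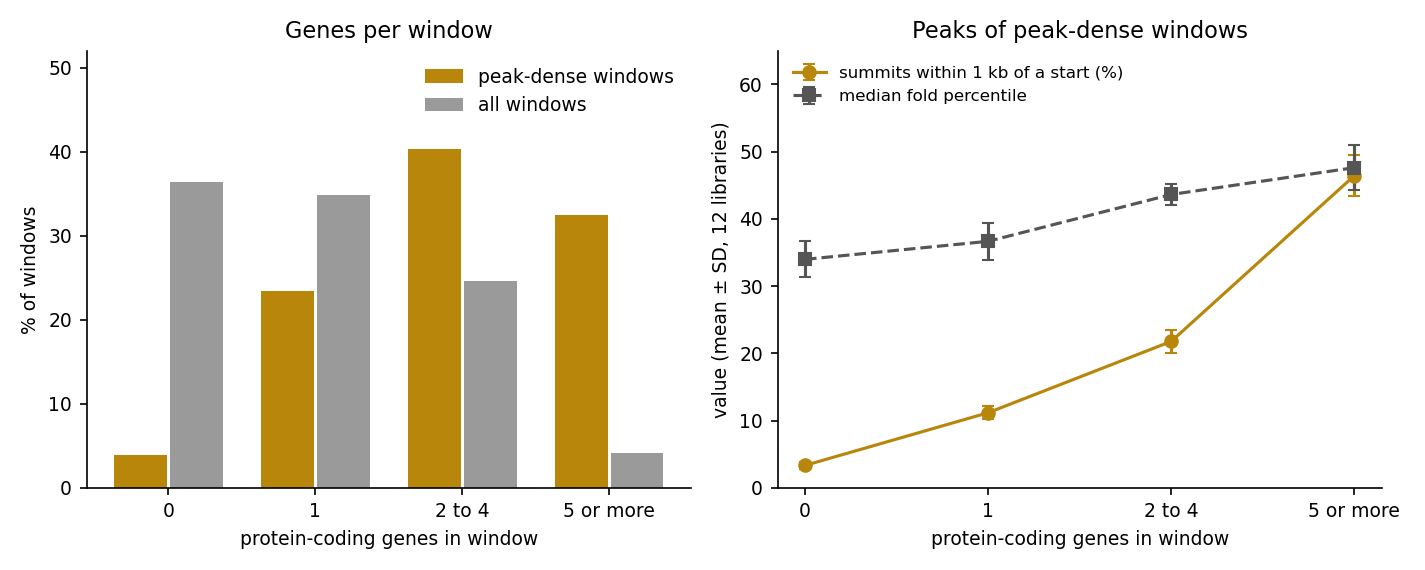
Left, the percentage of peak-dense windows (gold) and of all windows (grey) that hold 0, 1, 2 to 4 or 5 or more protein-coding genes. Right, for peak-dense windows of each class, the percentage of summits within 1 kb of a gene start (circles) and the median fold percentile (squares), as mean and SD over 12 libraries. The share at a start climbs from 3.33% to 46.4% with gene number and the fold percentile from 34.0 to 47.6.

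Among the 126 peak-dense windows with a single gene, the first after Sfi1 and BC107364 outside the chromosome 8 stretch were those of Irf2bpl and Bcat1, each with a mean of 12.8, and of Mtf2, with 12.3. Mtf2 is a subunit of Polycomb repressive complex 2, and Bcat1 starts the breakdown of branched-chain amino acids. Pde4d and Cd9 followed among others, each at 11.9, then Elovl6 at 11.8 and Esrrb at 11.6. These windows were picked after their values were seen. In the Bcat1 window 26.8% of summits lay near a start, in the Cd9 window 13.3% and in the Esrrb window 7.91%, while in the Pde4d window none did.

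Of 22 pluripotency factors, 9 had a peak-dense window over some part of the gene, where 1936 of all 20665 protein-coding genes did (9.37%). The 9 were Nanog, Dppa3, Esrrb, Klf5, Fgf4, Utf1, Tet2, Dppa5a and Tfcp2l1. The median over the list, taking the highest window of each gene, was 6.71 peaks, against 3.58 over all protein-coding genes. Pou5f1, which encodes OCT4, fell just short with 7.83 ± 2.95 peaks, and Sox2 had 6.17 ± 1.27, Klf4 3.83 ± 0.937 and Zfp42 4.83 ± 1.19 (SD, n = 12 each).

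Nanog shares chr6:122700001-122800000 with Slc2a3, a glucose transporter gene. The window held 10, 10 and 13 peaks in the lowest, median and highest synHPRT1R library, and 10, 12.5 and 16 in synHPRT1. The genotypes overlapped. Of its 21 regions of overlapping peaks, 7 were listed in all 12 libraries and 7 in 1 library. A region centred at -4.62 kb from the Nanog start was listed in all 12 with a median fold percentile of 79.4, and the region at the start itself, at -0.092 kb, was also in all 12 but with a percentile of 11. Another region in all 12, at 12.7 kb, had a percentile of 72.7. The window before it, chr6:122600001-122700000, holds Dppa3, a maternal factor that protects DNA methylation in the zygote, with Gdf3 and Apobec1. It had 8, 11 and 13 peaks in synHPRT1R and 10, 12 and 15 in synHPRT1. Both belong to a run of 3 peak-dense windows that ends past Foxj2.

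Esrrb filled chr12:86400001-86500000, which had 9, 11 and 14 peaks in synHPRT1R and 8, 11.5 and 17 in synHPRT1. It held 18 regions, 4 of them in all 12 libraries, at 0.159, 48.5, 49.5 and 68.6 kb from the printed start. The highest fold percentile, 77.8, belonged to a region at 11.8 kb that 7 libraries listed. Klf5, a zinc finger factor of the same network, lies in a window with 8, 9.5 and 12 peaks in synHPRT1R and 6, 12 and 16 in synHPRT1.

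Signalling genes of the medium and niche gave 5 of 26. They were Tcf7l1, the repressor through which Wnt signalling acts on pluripotency genes, with 11 ± 2.17 peaks, Spry2 with 9.58 ± 1.93 and Dusp6 with 8.58 ± 1.98, feedback inhibitors of FGF and ERK signalling, and Axin2 with 8.75 ± 2.18 and Lef1 with 8.5 ± 2.54, both Wnt targets. Primed pluripotency genes gave 4 of the 10 on these chromosomes, Zic2 and Zic5 in 1 shared window with 12.9 ± 1.98 peaks, Foxd3 with 10.1 ± 1.73 and the DNA methyltransferase gene Dnmt3b with 8.5 ± 1.73. The neural list gave 3 of 10 (Pax6, Nes and Zic1), the trophoblast list 3 of 10 (Eomes, Tead4 and Tfap2c) and the endoderm list 1 of 10 (Foxa2). The mesoderm, fibroblast and feeder, and silent gene lists gave 0 of 10 each. Their median peaks per window were 3.63 for mesoderm, 3.25 for fibroblast and feeder and 1.83 for silent genes. Housekeeping genes gave 8 of 15, among them Hsp90ab1 with 12.8 ± 2.37 peaks, Tubb5 with 11.6 ± 2.27 and Actb with 9.17 ± 1.64. Myc and cell cycle genes gave 3 of 11 (Cdkn1a, Ccnd3 and Mycn), chromatin regulators 2 of 14 (Chd4 and Eed), and cytosolic ribosomal protein genes 15 of 73 (20.5%).

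Gene families in tandem differed widely. Of 67 replication-dependent histone genes, 57 lay in 6 peak-dense windows, 5 on chromosome 13 and 1 on chromosome 3, so these genes share their windows and are not separate observations. Of 39 Hox genes, which specify position along the body axis, 20 lay in 3 windows. The Hoxc window had 9, 11 and 12 peaks in synHPRT1R and 10, 13 and 16 in synHPRT1, the Hoxd window 7, 9 and 12 in synHPRT1R and 8, 10 and 10 in synHPRT1, and the Hoxa window 5, 8 and 9 in synHPRT1R and 4, 8 and 15 in synHPRT1. No Hoxb gene was in a peak-dense window, and the windows of that cluster had means of 1.83 to 3.83. Zinc finger genes named Zfp gave 47 of 388 (12.1%) and olfactory and vomeronasal receptor genes 7 of 1456 (0.481%).

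MicroRNA genes were in peak-dense windows about as often as protein-coding genes, 106 of 1136 (9.33%). They include the miR-290 to miR-295 cluster, which is abundant in mouse embryonic stem cells, and the Mir106b, Mir93 and Mir25 cluster inside Mcm7. Mature sequences were matched for 100 of the 106, 170 in all with 159 different seeds, and 9 seeds were shared by 2 or more. The sequences shown are a selection, with bases 2 to 8 in capitals (RefSeq, GRCm38.p6). They are those with the shared seeds AAGUGCU and AAAGUGC, and miR-290a-3p and miR-291b-3p, whose seeds none of the others has. The other shared seeds are not printed.
miR-291a-3p, chr7:3218968-3218989, plus strand: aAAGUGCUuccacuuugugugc
miR-294-3p, chr7:3220691-3220712, plus strand: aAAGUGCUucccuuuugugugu
miR-295-3p, chr7:3220815-3220837, plus strand: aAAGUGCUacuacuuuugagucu
miR-290a-3p, chr7:3218674-3218697, plus strand: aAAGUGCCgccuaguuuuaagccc
miR-291b-3p, chr7:3219529-3219550, plus strand: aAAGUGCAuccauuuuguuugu
miR-93-5p, chr5:138165574-138165596, minus strand: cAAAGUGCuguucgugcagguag
miR-106b-5p, chr5:138165787-138165807, minus strand: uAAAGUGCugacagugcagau

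The first 3 share AAGUGCU, and miR-290a-3p and miR-291b-3p differ from it in the last base of the seed. The 2 from chromosome 5 share AAAGUGC, the same letters moved by 1 base. The miR-290 to miR-295 window, chr7:3200001-3300000, had 9, 9.5 and 11 peaks in synHPRT1R and 9, 10 and 14 in synHPRT1, and reached 8 in all 12 libraries. Of its 15 regions, 8 were in all 12 libraries. Of these, 4 lay before the cluster, at 1.39, 6.71, 12.3 and 13.7 kb from the window start, with fold percentiles of 71.3, 73.9, 35.4 and 11.7, and chr7:3220648-3222561, at the end of the cluster, had a percentile of 39.4. A peak overlapped the cluster itself only in synHPRT1R clone 1 replicate 2 and synHPRT1 clone 1 replicate 3, and in the other 10 libraries the peaks of that region lay past it. The window of the Mir106b cluster had 8, 9 and 10 peaks in synHPRT1R and 7, 9 and 10 in synHPRT1.

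Peak-dense windows lay on every one of the 19 chromosomes, at different shares. Chromosome 17 had the highest, 42 of 949 windows (4.43%), followed by chromosome 7 with 44 (3.03%), chromosome 8 with 37 (2.86%) and chromosome 4 with 43 (2.75%). Chromosomes 14 and 16 had the lowest, 10 windows each (0.801% and 1.02%). The order was not that of gene density: chromosome 11 had 1.77 protein-coding genes per window and 2.30% peak-dense windows, and chromosome 17 had 1.52 genes per window. Of the 37 on chromosome 8, 6 were the low-fold windows described above.

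**Figure D4:**
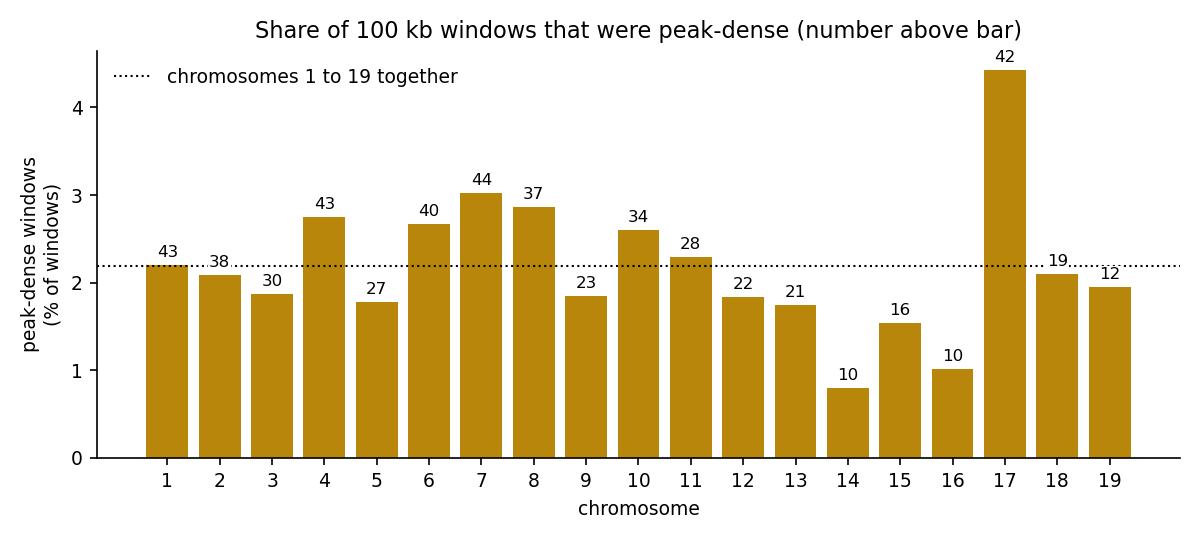
Peak-dense windows as a percentage of all 100 kb windows of each chromosome (bars), with their number above each bar. The dotted line is the share over chromosomes 1 to 19, 2.19%. Chromosome 17 reaches 4.43% and chromosome 14 0.801%.

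Peak-dense windows neighboured each other. Of the 539, 191 (35.4%) had a peak-dense window directly before or after, where 4.11% of all windows did. The 539 formed 348 single windows, 51 runs of 2, 24 of 3, 3 of 4 and 1 of 5. The mean count was 5.25 in windows 100 kb away, of which 20.8% were peak-dense, 4.04 at 200 kb, 3.58 at 300 kb, 3.21 at 400 kb and 2.84 at 500 kb, still above the mean of 1.96 over all windows.

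The longest run, chr4:147300001-147800000, spans 7 zinc finger genes (Zfp978, Zfp988, Zfp982, Zfp985, Zfp979, Zfp534 and Zfp984). Its 5 windows had means of 13.2, 12, 9.75, 9.33 and 8.33 in chromosomal order, with a median fold percentile of 27.3. The run chr13:21700001-22100000 holds histone genes with Zfp184, and chr1:171000001-171400000 holds 22 genes, among them the Fc receptor genes Fcgr3 and Fcgr4. The run chr17:55900001-56300000 also holds 22, among them Chaf1a, a subunit of the histone chaperone CAF-1, and the perilipin genes Plin3, Plin4 and Plin5. Of the runs of 3, the one with the highest summed count, chr18:37600001-37900000, covers the gamma-protocadherin cluster. In whole megabases, chr4:147000001-148000000 had 7 peak-dense windows, and chr10:128000001-129000000 and chr17:56000001-57000000 had 6 each.

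Libraries differed in how many of the windows reached 8. In synHPRT1R 334, 417 and 524 of the 539 did in the lowest, median and highest library, and in synHPRT1 288, 461 and 536. The lowest was synHPRT1 clone 2 replicate 3 (53.4%), and synHPRT1 clone 1 replicate 3 and synHPRT1 clone 2 replicate 1 tied as the highest (99.4%). The list of synHPRT1 clone 2 replicate 1, the longest, was 1.66 times as long as the shortest. Between the longest and the shortest list the count in peak-dense windows differed by 1.49 times and that in other windows by 1.69 times, and 498 of the 539 windows had more peaks in the longer list, 30 had as many and 11 had fewer. Set against the next shortest list, that of synHPRT1R clone 1 replicate 3, these ratios were 1.53 in list length, 1.43 in peak-dense and 1.54 in other windows.

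All 12 libraries reached 8 in 138 windows (25.6%), and 10 or more did in 315 (58.4%). The fewest was 5 libraries, and 17 windows reached 8 in 6 libraries or fewer. A lower bar gave closer agreement, with 5 peaks or more in all 12 libraries in 504 windows (93.5%). Without synHPRT1 clone 2 replicate 3, 164 of the same 539 windows reached 8 in every library (30.4%) and 521 reached 5 (96.7%). Outside the peak-dense windows, 1698 windows reached 8 in at least 1 library. The sets of windows at 8 or more in single libraries overlapped (shared windows as a percentage of the windows in either set) by 40.6 ± 8.47% for 36 pairs across genotypes, by 41.0 ± 7.66% for 18 pairs across the clones of 1 genotype and by 39.7 ± 8.75% for 12 pairs inside a clone (mean and SD). Pairs of libraries share libraries with each other, so these spreads are descriptions. Unequal list lengths also cap the overlap. Replicates 1 and 3 of synHPRT1 clone 2 had 1631 and 337 windows at 8 or more and shared 19.7%. The 3 means therefore cannot say whether libraries of a clone are closer to each other than to the rest.

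Windows chosen in 1 genotype were then counted in the other, which the choice had not used. Of 468 windows with a mean of at least 8 in the 6 synHPRT1R libraries, 434 (92.7%) also reached 8 in synHPRT1, and the lowest had 6.67. Of 629 chosen in synHPRT1, 434 (69.0%) reached 8 in synHPRT1R, and 99.8% reached 5. With lists of equal length the 2 directions gave 84.9% of 172 and 75.3% of 194.

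The coefficient of variation over the 12 libraries had a median of 0.194. The 5 lowest were the chr9 window (0.0509), the histone window (0.0515), the Ifnz window (0.0619), chr5:131500001-131600000 in Auts2 (0.0674; 9 to 11 peaks) and chr12:54100001-54200000 with Egln3, an oxygen-sensing prolyl hydroxylase (0.0715; 10 to 12 peaks). The 5 highest were windows of Afg3l1, Dbndd1 and Gas8 (0.423; 4 to 18 peaks), Sh3pxd2a (0.407; 2 to 14), Csf3, Med24, Thra, Nr1d1 and Msl1 (0.387; 4 to 14), the Hoxa genes (0.386; 4 to 15) and Macf1 (0.378; 4 to 17). The low end had median fold percentiles of 9.68 to 63.7 and the high end of 22.8 to 32.7. Of 8756 regions in peak-dense windows, 2572 (29.4%) were in all 12 libraries and 20.7% in 1, against 23.0% and 27.9% of 86376 regions elsewhere. A region listed in every library also adds most to the mean that chose the windows, so these shares are a description and no evidence of closer agreement. A peak-dense window held a median of 16 regions, of which 5 were in all 12 libraries. At the threshold, Kif14, Rnf220 and Bcl3 lie in windows of exactly 8 (5 to 12, 5 to 13 and 3 to 11 peaks), and Imp4, Usf1 and Psmc3 in windows just outside at 7.92 (6 to 11, 5 to 11 and 4 to 12). There were 128 windows from 8 to under 8.5 and 142 from 7.5 to under 8.

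No window differed between genotypes after adjustment. A two-sided exact permutation test of the mean count, synHPRT1R minus synHPRT1, was run with 924 permutations in 15103 windows with a mean of at least 1, with Benjamini-Hochberg adjustment, and gave 0 calls and a smallest adjusted p of 1. At an unadjusted p under 0.05 it called 15 of the 539 peak-dense windows (2.78%), where it called 216 of all windows tested (1.43%). All 15 were lower in synHPRT1R, a direction that 1.25% of all windows took and the opposite one 0.179%. The smallest p that the test allows is 0.00216, and 654 windows would have to reach it for any to pass the adjustment, while none did. No window of the 15103 had genotypes that did not overlap, in either direction.

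The lists averaged 46498 ± 5799 peaks in synHPRT1R and 49992 ± 9766 in synHPRT1 (SD, n = 6 each), a gap smaller than either SD, and synHPRT1 had both the shortest list and the longest. In unscaled counts 401 of the 539 peak-dense windows were lower in synHPRT1R (74.4%), 110 higher and 28 equal. Of the 15103 windows tested 8029 were lower (53.2%), 4066 higher and the rest equal. A larger share was equal there than among peak-dense windows, so the 2 percentages are not like for like. Scaled to list length, a peak-dense window had 9.68 ± 0.282 peaks in synHPRT1R and 9.74 ± 0.450 in synHPRT1, and this gap is within 1 SD of either genotype. The same test on counts scaled to list length called 31 of the peak-dense windows (5.75%), 13 higher and 18 lower in synHPRT1R, beside 5.68% of all windows, where 3.03% were higher and 2.65% lower. Over all windows the unscaled test called 27 higher and 189 lower in synHPRT1R (87.5% lower), and the scaled test called 458 higher and 400 lower (46.6% lower), so calls in both directions were more numerous after scaling. Lists of equal length gave a different split, with 23 peak-dense windows called (4.27%), 3 higher and 20 lower in synHPRT1R. Beside them stood 1.82% of all windows, 127 higher and 118 lower. Without synHPRT1 clone 2 replicate 3 the unscaled test called 43 peak-dense windows (7.98%) and 617 windows in all (4.04%). Leaving out synHPRT1R clone 1 replicate 1 gave 28 (5.19%) and 439 calls (2.92%). Leaving out replicate 2 of that clone gave 27 (5.01%) and 337 (2.23%). With replicate 2 of synHPRT1 clone 1 left out, the test gave 19 (3.53%) and 344 (2.27%). Some other omissions gave fewer peak-dense calls. Leaving out synHPRT1R clone 1 replicate 3 gave 10 (1.86%) beside 1.59% of all windows tested. Leaving out synHPRT1R clone 2 replicate 2 gave 10 beside 1.71%. Without synHPRT1 clone 1 replicate 3 there were 11 (2.04%) beside 1.63%, and without synHPRT1 clone 2 replicate 1 also 11, beside 1.8%. The remaining omissions gave 12 to 15. Clone means were 9.74 and 8.88 peaks per peak-dense window in synHPRT1R and 10.2 and 9.81 in synHPRT1, and with 2 clones on each side the lowest exact p would be 0.333.

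**Figure D5:**
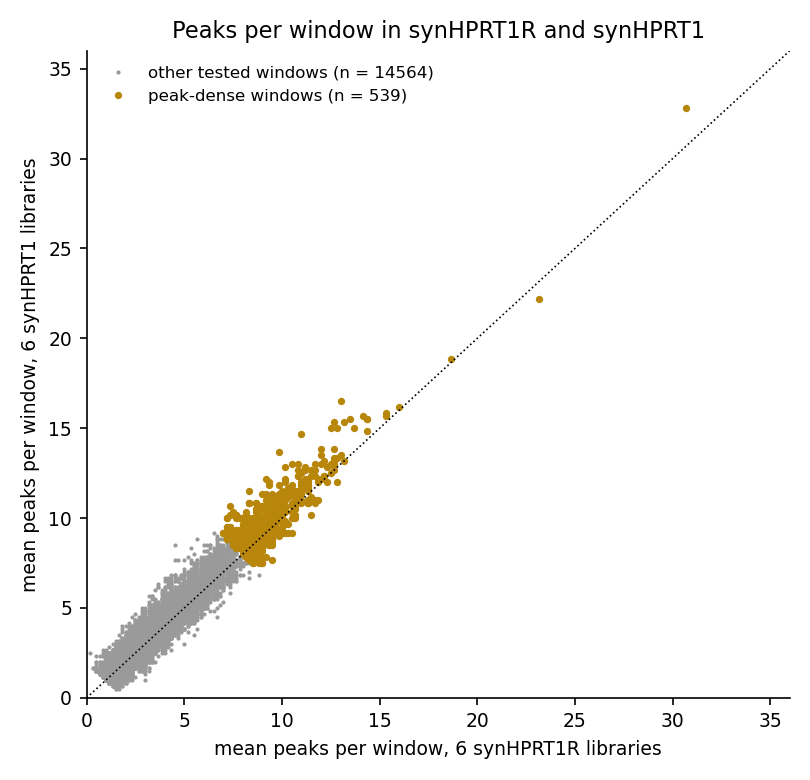
Mean peaks per 100 kb window in the 6 synHPRT1R libraries (horizontal axis) against the 6 synHPRT1 libraries (vertical axis) for the 15103 windows tested, with the 539 peak-dense windows in gold and the line of equal counts dotted. Peak-dense windows lie mostly above the line, as 401 of them were lower in synHPRT1R.

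The smallest p of a peak-dense window belonged to the Zfp184 window, chr13:21900001-22000000. It had 11, 13 and 16 peaks in the lowest, median and highest synHPRT1R library, and 15, 16.5 and 18 in synHPRT1, so the genotypes overlapped. The difference was -3.5 peaks (two-sided exact permutation p = 0.00866, adjusted p = 1) and the clone means were 14 and 12 in synHPRT1R and 16.7 and 16.3 in synHPRT1. Scaled to list length the exact permutation p was 0.039. The Nr2f2 window, chr7:70300001-70400000, had 7.17 ± 0.983 peaks in synHPRT1R and 10.0 ± 2.19 in synHPRT1 (exact permutation p = 0.0238, and 0.00866 scaled to list length). Nr2f2 encodes the orphan nuclear receptor COUP-TFII. The Axin2 window had 7.33 ± 2.07 and 10.2 ± 1.17 peaks (exact permutation p = 0.0281, and 0.0541 scaled). The other 7 of the 10 smallest p-values were windows that hold Rps29, Sirt6, Wtip, Apoe, Ptma, Zkscan5 and Dnajb1 among their genes, with differences of -1.17 to -2.83 peaks and exact permutation p-values of 0.0216 to 0.0368, each with an adjusted p of 1. Of the 10 windows, 6 kept an exact permutation p under 0.05 after scaling to list length, 4 with lists of equal length and 1 with the stricter q. The Apoe window lost it in 11 of 16 alternatives, among them 8 of the 12 that left out 1 library, and the Dnajb1 window in 8 of 16. Of the 15 peak-dense windows, 10 also had a p under 0.05 after scaling.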

How the data were processed

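Each of the 12 libraries has 1 deposited peak list in the MACS2 narrowPeak layout, without a header, so peaks were called per library. Per the submitters' processing notes, MACS2 2.1.0, Bowtie2 2.2.9 and SAMtools 1.9 were used on GRCm38 (mm10), next to deepTools 3.5.0 and bcl2fastq 2.20. How read shifting, duplicates, reads with several matches and blacklists were handled is not stated there. The authors' deposited score, fold (a ratio to local background), −log10 p-value and −log10 q-value belong to each peak and were used only within its own list, and the lowest deposited −log10 q-value was 1.3. The deposited last column, a whole number of bases of the unit other, places the summit. No read counts were used, and a short list can miss weak sites.

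Summits were counted per 100 kb window with Python, numpy and pandas, up to the last gene or peak of a chromosome. A gene was placed in every window its RefSeq span (GRCm38.p6) overlaps. Regions were unions of peaks overlapping by 1 bp or more. Genotypes were compared per window by a two-sided exact permutation test with Benjamini-Hochberg adjustment, tested on simulated data. Groups and replicate numbers came from the titles and source names. Windows were named if among the 10 highest means, nearest the threshold, longest runs, extremes of variation or smallest genotype p-values. The windows and gene lists were chosen with earlier results of these data known. Alternatives were a −log10 q of at least 5, lists of equal length, merged regions, windows shifted by 50 kb, identical peaks counted 1 time (no list held any), scaling to list length, no filter on low counts, a replicate block and leaving out each library, which for the counts of agreement was chosen after seeing the data. Chromosomes X and Y stayed outside the windows.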

Additional observations from a re-analysis of the deposited data

Results flagged for a closer look

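In synHPRT1 clone 2 replicate 3, 53.4% of the peak-dense windows reached 8 peaks, far below the next synHPRT1 library at 84.0%, and it has the shortest list of the 12. In synHPRT1R clone 1 replicate 1 the median fold percentile of peaks in peak-dense windows was 46.1, above the next synHPRT1R library at 42.6. Single libraries also stood apart in 4 named windows. The window from 3000001 on chromosome 9 had 24 peaks in synHPRT1 clone 1 replicate 3 and 21 to 22 in the other synHPRT1 libraries. The Rps29 window from 69100001 on chromosome 12 had 9 in synHPRT1R clone 1 replicate 1 and 6 to 7 in the other synHPRT1R libraries. The Apoe window from 19600001 on chromosome 7 had 10 in synHPRT1R clone 2 replicate 2 and 7 to 8 in the others of its genotype. The Zkscan5 window from 145200001 on chromosome 5 had 8 in synHPRT1 clone 2 replicate 3 and 10 to 11 in the others of its genotype. Of 52 groups of 6 libraries looked at, 6 had such a library, where about 5% was taken as the chance rate. The groups share libraries, and the named windows hold small whole counts and were picked by their values. The 5% is therefore no exact rate for them.

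Chromosomes X and Y, outside the windows of the report, held 6 windows with a mean of at least 8. On X these were 4 of 1709 windows (0.234%), with Mid1 (11.2 peaks), Pls3 (10.5), Chic1 and Tsx (8.75) and Bclaf3 (8.25). On Y they were 2 of 909 windows, neighbours at 90700001 and 90800001, with means of 23.0 and 9.08. The first overlaps Gm52481 and had 22.8 peaks in synHPRT1R and 23.2 in synHPRT1.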

How the results depend on the processing

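The number of peak-dense windows was 93 with peaks of −log10 q of at least 5 and 168 with lists of equal length, and 440 with merged regions. All of them were among the 539. The stricter q and equal lengths only remove peaks, and merging joins them, so this is no evidence of agreement. The windows of these settings held 2.71%, 4.31% and 9.09% of the peaks, and windows shifted by 50 kb held 10.2%. With the stricter q and with equal lengths 22.6% and 23.2% of peak-dense windows had a peak-dense neighbour, and the median number of genes was 4 with the stricter q. Leaving out each library in turn gave 501 to 578 windows, with 10.3% to 11.4% of the peaks. Windows chosen in synHPRT1 reached 8 in synHPRT1R in 69.0% of cases. Unadjusted genotype calls scaled to list length were 858 over all windows (5.68%) and 31 in peak-dense ones (5.75%). Lists of equal length gave 245 of 13454 windows (1.82%) and 23 peak-dense ones (4.27%). Of these 23, 3 were higher and 20 lower in synHPRT1R, against 127 and 118 over all windows. The stricter q gave 177 of 12459 windows (1.42%), 172 of them lower, and 20 peak-dense ones (3.71%), all lower. Leaving out each library in turn gave 228 to 617 over all windows and 10 to 43 in peak-dense ones. Adjusted calls were 0 under every alternative run. The cause of these changes was not tested.

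Same-numbered libraries of opposite genotypes did not deviate together on average (correlations of -0.154 to 0.175 over 12 pairs, mean 0.00436). Differently numbered ones gave -0.196 to 0.138 over 24 pairs (mean -0.00204). Clones of the same genotype were not compared, so these values do not settle whether replicate numbers mark pairs. With a replicate block the unadjusted calls were 148 over all windows (0.980%) and 12 in peak-dense ones (2.23%), and 0 after adjustment. The block leaves 216 splits and a smallest exact permutation p of 0.00926, against 0.00216 in the main test. Its 0 after adjustment was therefore close to fixed in advance. The genotype difference per peak-dense window, -0.353 to -1.13 without each library in turn, was -0.0587 scaled to list length. For the 10 windows named by genotype p, 124 of 160 alternative fits kept a p under 0.05 in the same direction, 36 did not, and 0 turned round. Most of these fits leave out 1 library. Of the 10, 6 kept it scaled to list length, 4 with lists of equal length, 1 with the stricter q and 8 with the replicate block. Lists of whole peaks limit these counts, since a site absent from a short list may be open.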
